A study of Mus musculus with 6 samples.

Results

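The 10 genes described here make, load and control major histocompatibility complex (MHC) class I molecules, and they were taken from the deposited expression table by gene symbol. They are the class I heavy chains H2-K1 and H2-D1, the light chain B2m, the peptide transporter and loading genes Tap1, Tap2 and Tapbp, the immunoproteasome subunits Psmb8, Psmb9 and Psmb10, and the transactivator Nlrc5. All 10 were among the 26110 genes listed in the table, and all 10 passed the filter of a mean value of at least 10, as did 17812 genes in all. Bulk RNA-seq had been performed on MHCIIhi cells sorted from the muscularis externa (ME) of the small bowel, with 3 libraries of CX3CR1- cells and 3 libraries of CX3CR1+ cells. All libraries came from naive, untreated mice of the genotype CX3CR1+/GFP on a C57BL/6 background, in which GFP is driven by the promoter of the fractalkine receptor gene Cx3cr1, so both groups carried that allele. For each group, ME from 6 mice had been pooled. The sources do not state whether each library had its own pool, so that the p-values measure the spread between libraries, which may be technical.

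MHC class I molecules display peptides from proteins made inside a cell to CD8+ T cells, and they are found on nearly all nucleated cells. Proteasomes cut the proteins, the TAP1-TAP2 transporter carries the peptides into the endoplasmic reticulum (ER), and tapasin, the product of Tapbp, holds an empty class I molecule next to the transporter until a peptide binds. Macrophages and dendritic cells express the whole pathway, and interferons raise it through transcription factors such as those of the IRF family and through NLRC5, which acts on class I promoters as CIITA acts on class II promoters.

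H2-K1, H2-D1, B2m and Nlrc5 were lower in the MHCIIhiCX3CR1- cells than in the MHCIIhiCX3CR1+ cells, at 44.9 to 62.1% of the CX3CR1+ mean. The 6 genes of peptide cutting, transport and loading did not pass the test in either direction. Thus 4 of the 10 genes were called lower and 0 were called higher (limma on log2(value + 1), adjusted p of at most 0.05), against 11.0% of all tested genes that were called lower and 13.3% that were called higher. At an unadjusted limma p under 0.05 the counts were also 4 and 0, for which no share over all tested genes is given here. The count of 4 fell to 2 under quantile normalization, where H2-K1 and H2-D1 lost their calls, and to 2 without the intensity trend in limma, where H2-D1 and Nlrc5 lost theirs. With a fold change of at least 2 as a further condition, B2m was the 1 gene called lower, against 8.15% of all tested genes, and the count was 0 after scaling to the total without mitochondrial genes. The values of the same 4 genes did not overlap between the groups, against 19.8% of all tested genes that were lower and 20.3% that were higher in CX3CR1- without overlap. The median log2 fold change, CX3CR1- minus CX3CR1+, was -0.35 over the 10 genes and -0.003 over all tested genes. In bulk samples, fewer cells of a type and less RNA per cell cannot be told apart.

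The sorted populations differed in more than CX3CR1. The sort marker gene Cx3cr1 itself had a value of 23.6 ± 4.80 (SD, n = 3) in the CX3CR1- libraries and 366 ± 17.5 (SD, n = 3) in the CX3CR1+ libraries. The sample labels call the cells dendritic cells, whereas the study calls them macrophages. The study too reported higher transcripts of dendritic cell markers in the CX3CR1- cells. At the protein level it found CD11c and CD103 on few of these cells and CD11b on most, and MHCII+ cells stained for the macrophage marker IBA-1. The values given here are of RNA only. All 10 macrophage markers were called lower in CX3CR1-, with summed values of 9559 to 11430 against 49215 to 54642, and 9 of 10 conventional dendritic cell markers were called higher, with sums of 4044 to 4372 against 303 to 366. Markers of other cells were also higher in the CX3CR1- libraries, namely 12 of 12 of epithelium (sums of 18790 to 34467 against 27.9 to 61.9), 8 of 9 of B and plasma cells (14373 to 34383 against 1675 to 2043.1), 6 of 6 of fibroblasts (4117 to 12168 against 181 to 316), 4 of 5 of endothelium (1173 to 1603 against 623 to 791) and 4 of 6 of monocytes (2641 to 4737 against 2352 to 2430). The monocyte marker F13a1 was called lower, with means of 1007 and 1607. In the CX3CR1+ libraries the epithelial markers Krt8, Krt20, Fabp1 and Alpi were at or under the value of 3 reads. Of 5 tested T and NK cell markers, 2 were called higher and 1 lower (258 to 561 against 584 to 668), and of the 6 smooth muscle markers 0 were called (918 to 2675 against 1954 to 2745). Of 6 tested neuron and glia markers, 3 were called higher (146 to 498 against 88.4 to 99.0), as was the 1 tested marker of eosinophils and mast cells. Mitochondrial genes took 47.5 to 54.9% of the normalized total in CX3CR1- and 18.1 to 21.2% in CX3CR1+ libraries. Where these values differed, they did so between the same groups as the class I chains and Nlrc5. The direction was the same for the macrophage markers and otherwise mostly the opposite. Their part in the class I differences was not tested. The libraries held about 5346379 to 17616748 reads, and the depths of the groups overlapped. A value of 3 reads lay between 1.39 and 5.36, and the lowest value of the 10 genes, that of Tap2 in CX3CR1- replicate 1, stood for about 40 reads.

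The promoters of the 3 chain genes are shown first, because they are the DNA on which NLRC5, the RFX complex and the interferon-regulated factors act. NLRC5 has no DNA-binding domain of its own and sits on a set of boxes, of which the X2 box resembles the CRE site TGACG and the Y box holds ATTGG. RefSeq promoter windows (GRCm38.p6, 250 bases before each start) were found for 8 of the 10 genes, with no entry for Tap2 and Nlrc5. H2-K1 had 2 windows, and both lie inside the RefSeq gene, which extends to chr17:34000619 on the minus strand. The H2-K1 bases printed below therefore lie downstream of the outermost annotated start. Searched on both strands, TGACG followed after 10 to 30 bases by ATTGG was present in the windows of H2-K1, H2-D1 and B2m, and the gap was 20 bases in each. The letters were not in this arrangement in the windows of Tap1, Tapbp, Psmb8, Psmb9 and Psmb10. Of all 32817 windows in the table, 210 (0.640%) held it. The 30 bases of each chain gene are given 5′ to 3′ with TGACG and ATTGG in capitals. They lie at chr17:34000359-34000388 on the minus strand (H2-K1), chr17:35262993-35263022 on the plus strand (H2-D1) and chr2:122147609-122147638 on the plus strand (B2m).
H2-K1: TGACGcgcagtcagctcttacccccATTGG
H2-D1: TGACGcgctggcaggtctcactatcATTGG
B2m: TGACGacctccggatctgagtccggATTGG

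Between the boxes, H2-K1 and H2-D1 had the same base at 13 of 20 places, whereas B2m shared 3 with H2-K1 and 2 with H2-D1. The wider windows of H2-D1 (chr17:35262844-35263093, plus strand), B2m (chr2:122147437-122147686, plus strand) and, as a gene whose level did not pass the test, Tap1 (chr17:34187306-34187555, plus strand) are printed below for comparison. Capitals mark every match on either strand to the X2 and the Y letters given above, to a pattern of many NF-kB sites (GGGNNNNCCC) and to a pattern of IRF and ISGF3 sites (GAAANNGAAA).
H2-D1: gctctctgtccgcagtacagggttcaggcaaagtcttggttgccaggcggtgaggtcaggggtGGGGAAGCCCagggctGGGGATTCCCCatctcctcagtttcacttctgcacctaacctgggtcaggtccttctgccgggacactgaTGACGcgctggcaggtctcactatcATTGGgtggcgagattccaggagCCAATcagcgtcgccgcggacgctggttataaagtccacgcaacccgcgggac
B2m: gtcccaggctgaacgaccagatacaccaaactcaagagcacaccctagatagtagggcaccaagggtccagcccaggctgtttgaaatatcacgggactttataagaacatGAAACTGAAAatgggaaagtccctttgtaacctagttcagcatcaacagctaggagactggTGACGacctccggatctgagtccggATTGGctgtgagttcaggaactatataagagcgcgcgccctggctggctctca
Tap1: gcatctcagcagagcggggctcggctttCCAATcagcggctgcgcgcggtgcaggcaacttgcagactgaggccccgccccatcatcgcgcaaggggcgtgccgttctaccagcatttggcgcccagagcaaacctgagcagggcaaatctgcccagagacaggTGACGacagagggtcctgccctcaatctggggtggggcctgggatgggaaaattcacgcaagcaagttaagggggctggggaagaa

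The H2-D1 window held 3 overlapping or adjacent matches to GGGNNNNCCC within the stretch GGGGAAGCCCagggctGGGGATTCCCC, and the same 27 bases stood in the H2-K1 window at chr17:34000448-34000474 on the minus strand. B2m held none of these and instead had 1 match to GAAANNGAAA. In Tap1, TGACG and the reverse complement of ATTGG were both present, but far apart and in the other order. Single short patterns were common in the table, at 17.7% of windows for TGACG, 33.8% for ATTGG, 10.3% for GGGNNNNCCC and 2.97% for GAAANNGAAA. A match of letters is a description and not a bound site. Sites of the same factors with other letters or another spacing were not searched for, so that a window without a match can still hold such a site.

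The heavy chain H2-K1 (Ensembl gene ENSMUSG00000061232, chr17:33996017-34000347) had values of 4364, 4303 and 4449 in CX3CR1- replicates 1 to 3 and of 8074, 9161 and 7981 in CX3CR1+ replicates 1 to 3. All 3 CX3CR1- libraries lay close together and below every CX3CR1+ library. The means were 4372 ± 73.1 and 8405 ± 656 (SD, n = 3 each), and the log2 fold change was -0.94 (SE 0.13, limma adjusted p = 0.00043). H2-D1 (ENSMUSG00000073411, chr17:35262730-35267499), the other classical heavy chain of this strain, had values of 4313, 4883 and 4513 in CX3CR1- and of 6912, 8301 and 6867 in CX3CR1+ libraries. The groups again did not overlap, and the distance between them was smaller than for H2-K1. The means were 4570 ± 289 and 7360 ± 815 (SD, n = 3 each), with a log2 fold change of -0.68 (SE 0.14, limma adjusted p = 0.0046). The 2 heavy chain genes are near copies: 22.8% of the 31-base words of the H2-K1 transcripts occurred in other genes, 11.1% in H2-D1, and 26.9% of those of H2-D1 occurred elsewhere, 13.8% in H2-K1. Pseudoalignment could therefore split reads between them, and their single values are less certain than that of B2m.

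B2m (ENSMUSG00000060802, chr2:122147686-122153083) codes for beta-2-microglobulin, the light chain that every class I heavy chain needs to reach the cell surface. Its values were 10091, 9334 and 8542 in CX3CR1- and 22148, 21249 and 18860 in CX3CR1+ libraries. Every CX3CR1- library lay far below every CX3CR1+ library. The means were 9323 ± 775 and 20752 ± 1699 (SD, n = 3 each), with a log2 fold change of -1.15 (SE 0.13, 95% confidence interval -1.44 to -0.87, limma adjusted p = 0.00013). None of its 31-base words occurred in another gene. The call held under all 16 alternative settings, with log2 fold changes from -1.22 to -0.98.

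The calls of the heavy chains depended on the scaling. Under quantile normalization, which moved the median of all tested genes to -0.15, the log2 fold change was -0.34 for H2-K1 (limma adjusted p = 0.052) and -0.06 for H2-D1 (limma adjusted p = 0.69), whereas it was -1.20 for B2m. Scaling to the total without mitochondrial genes, which moved the median to 0.16, gave -0.77 for H2-K1, -0.51 for H2-D1 and -0.98 for B2m, and each was still called.

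**Figure D1:**
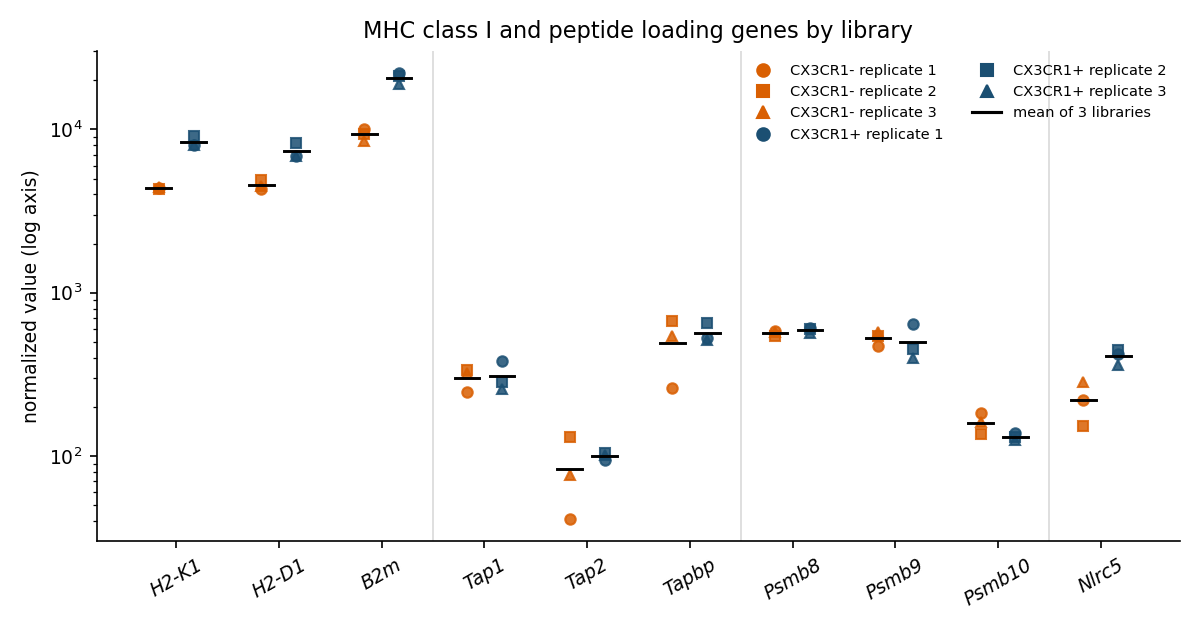
Normalized value (log axis) of each of the 10 genes in the 3 CX3CR1- (orange) and 3 CX3CR1+ (blue) libraries, with lines at the group means. H2-K1, H2-D1, B2m and Nlrc5 separate without overlap, while the points of the other 6 genes interleave.

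Nlrc5 (ENSMUSG00000074151, chr8:94434356-94527272), the class I transactivator, had values of 219, 153 and 285 in CX3CR1- and of 423, 445 and 363 in CX3CR1+ libraries. The highest CX3CR1- library lay below the lowest CX3CR1+ library, and the CX3CR1- libraries spread widely. The means were 219 ± 66.0 and 410 ± 42.6 (SD, n = 3 each), with a log2 fold change of -0.94 (SE 0.25, limma adjusted p = 0.022). This call was lost in 5 of 16 alternatives, among them the fits without CX3CR1+ replicate 1, 2 or 3 (limma adjusted p of 0.079, 0.092 and 0.051), while the log2 fold change stayed between -1.15 and -0.70 in all fits that left out a library. Ciita, the class II transactivator, had 555 ± 73.0 in CX3CR1- and 565 ± 134 in CX3CR1+ libraries (SD, n = 3 each), with a log2 fold change of -0.01 (limma adjusted p = 0.99). The ratio of Nlrc5 to Ciita within a library was 0.348, 0.280 and 0.589 in CX3CR1- and 0.614, 1.06 and 0.618 in CX3CR1+ libraries. The ratios did not overlap, and CX3CR1- replicate 3 came close to the CX3CR1+ libraries. The difference was -0.93 on the log2 scale (exact permutation test, two-sided p = 0.1, which is the smallest that 3 libraries against 3 allow, 0.175 after Benjamini-Hochberg adjustment over 7 ratios).

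The transporter genes Tap1 and Tap2 lie side by side with Psmb9 and Psmb8 within 34292 bases of the MHC on chromosome 17. Tap1 (ENSMUSG00000037321, chr17:34187553-34197225) had values of 245, 336 and 321 in CX3CR1- and of 381, 285 and 256 in CX3CR1+ libraries. The groups overlapped, and the highest and the second lowest value both belonged to CX3CR1+ libraries. The log2 fold change was -0.02 (95% confidence interval -0.54 to 0.49, limma adjusted p = 0.95). Tap2 (ENSMUSG00000024339, chr17:34203527-34216321), which codes for the other chain of the transporter, had values of 41.5, 132 and 76.4 in CX3CR1- and of 94.0, 104 and 101 in CX3CR1+ libraries. The CX3CR1- libraries enclosed the CX3CR1+ libraries, with a coefficient of variation of 54.7% against 5.28%. The log2 fold change was -0.41 (95% confidence interval -1.28 to 0.46, limma adjusted p = 0.50), an interval that includes a 2-fold decrease as well as an increase.

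Tapbp (ENSMUSG00000024308, chr17:33915899-33929292), the tapasin gene, showed the same kind of spread, with values of 262, 670 and 546 in CX3CR1- and of 531, 649 and 511 in CX3CR1+ libraries. CX3CR1- replicate 1 was the lowest library for Tap1, Tap2 and Tapbp alike, and it was also the one with the highest epithelial marker sum (34467) and the highest mitochondrial share (54.9%), the part of which was not tested. The log2 fold change of Tapbp was -0.29 (95% confidence interval -0.99 to 0.41, limma adjusted p = 0.56). Without CX3CR1- replicate 1, the log2 fold changes were 0.12 for Tap1, 0.01 for Tap2 and 0.11 for Tapbp, and none passed the test. A further limit of Tapbp is that 26.9% of its 31-base words occurred in other annotated genes, mostly in Gm19412, and for Tap2 this was 14.3%, mostly in Gm15821.

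The immunoproteasome subunits Psmb8, Psmb9 and Psmb10 replace the constitutive catalytic subunits Psmb5, Psmb6 and Psmb7 in cells exposed to interferon and in many immune cells, and thereby alter which peptides are cut. Psmb8 (ENSMUSG00000024338, chr17:34197721-34201454) had values of 583, 544 and 577 in CX3CR1- and of 609, 603 and 570 in CX3CR1+ libraries. All 6 libraries lay close together, and the groups overlapped. The log2 fold change was -0.06 (95% confidence interval -0.43 to 0.30, limma adjusted p = 0.82). Of the 31-base words of Psmb8, 13.7% occurred in other annotated genes, mostly in Gm20496. Psmb9 (ENSMUSG00000096727, chr17:34181987-34187764) had values of 472, 544 and 578 in CX3CR1- and of 640, 451 and 398 in CX3CR1+ libraries. CX3CR1+ replicate 1 was the highest library for Psmb9 and for its neighbour Tap1, and CX3CR1+ replicate 3 was the lowest for Psmb9. The log2 fold change was 0.12 (95% confidence interval -0.36 to 0.61, limma adjusted p = 0.73). Psmb10 (ENSMUSG00000031897, chr8:105935735-105938444) had values of 183, 137 and 161 in CX3CR1- and of 138, 131 and 126 in CX3CR1+ libraries. CX3CR1- replicate 2 lay just under CX3CR1+ replicate 1, so that the groups overlapped by this pair. The log2 fold change was 0.27 (95% confidence interval -0.24 to 0.79, limma adjusted p = 0.44).

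**Figure D2:**
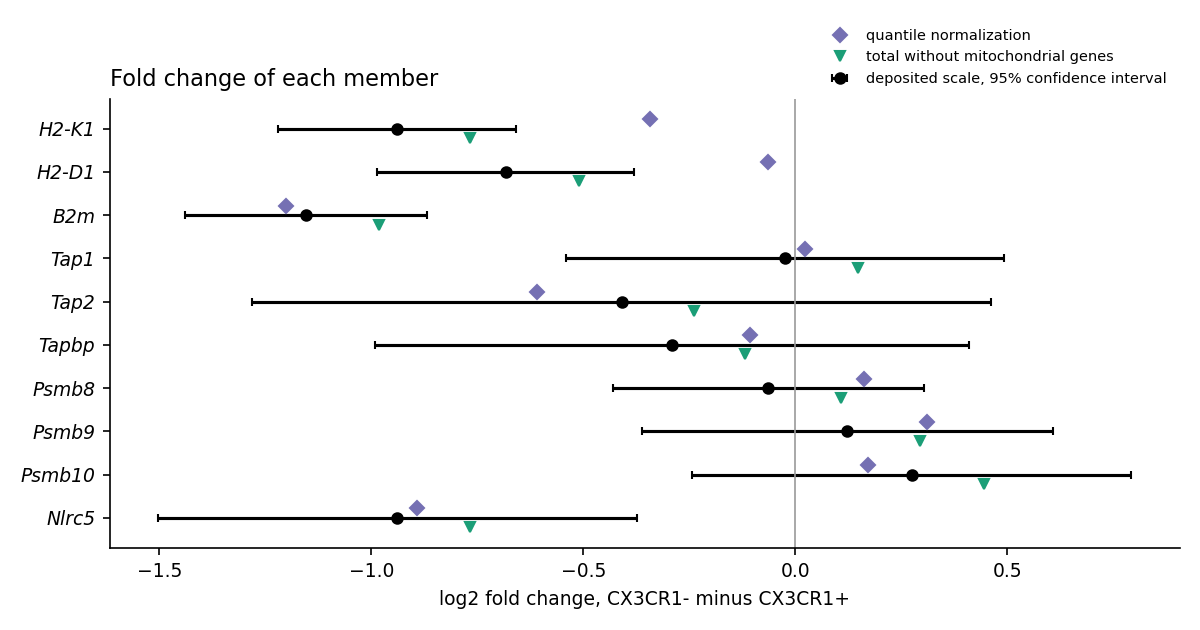
Log2 fold change, CX3CR1- minus CX3CR1+, of each of the 10 genes on the deposited scale (black, bars are 95% confidence intervals) and under 2 other scalings (coloured symbols). B2m lies near -1 under every scaling, H2-D1 moves to -0.06 under quantile normalization, and the intervals of Tap1, Tap2, Tapbp, Psmb8, Psmb9 and Psmb10 include 0.

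The RefSeq starts of Psmb9 and Tap1 are 226 bases apart and face away from each other, so that the Tap1 window printed above is also most of the Psmb9 promoter. At this end 4.79% of the 31-base words of Psmb9 occurred in Tap1 transcripts, and reads of that part cannot be assigned to one of the genes. Psmb8 starts 10639 bases and Tap2 starts 16923 bases downstream of Tap1. None of the 4 genes of this cluster was called, and their log2 fold changes ran from -0.41 to 0.12. Counted between RefSeq gene starts, for H2-K1 the outermost start, H2-K1 and Tapbp lie 186937 and 268078 bases below the Tap1 start in coordinate. H2-D1 lies 1075538 bases above it, while B2m is on chromosome 2 and Psmb10 and Nlrc5 are on chromosome 8. The 4 genes called lower were thus on 3 chromosomes.

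**Figure D3:**
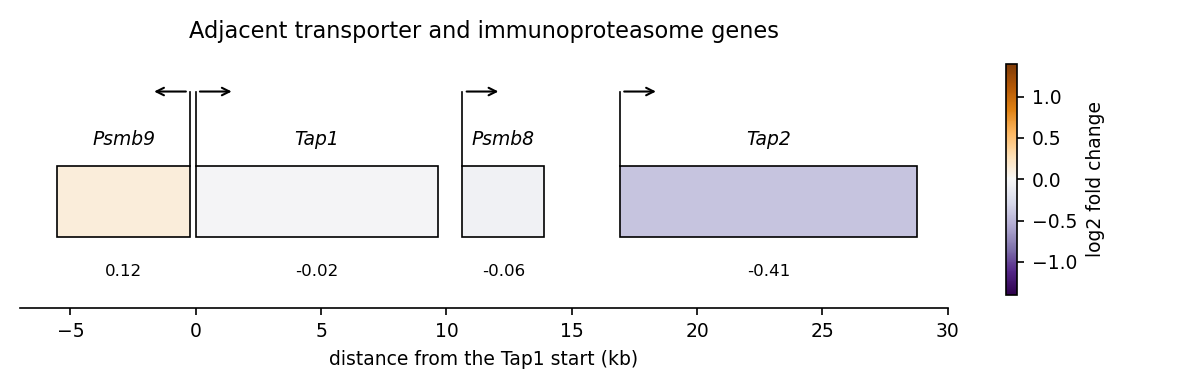
Map to scale of the 4 adjacent genes Psmb9, Tap1, Psmb8 and Tap2, in kb from the Tap1 start, with arrows for the direction of transcription and fill colour and printed number for the log2 fold change, CX3CR1- minus CX3CR1+. The values run from -0.41 (Tap2) to 0.12 (Psmb9), and none passed the test.

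The levels of the 10 genes were compared per kb of the principal annotated transcript. B2m stood first in both groups, with 10840 ± 901 per kb in CX3CR1- and 24130 ± 1976 per kb in CX3CR1+ libraries (SD, n = 3 each). H2-K1 followed with 2701 ± 45.1 and 5192 ± 405 per kb, and H2-D1 with 2174 ± 137 and 3502 ± 388 per kb. The next levels were much lower, at 393 ± 39.8 and 367 ± 94.0 per kb for Psmb9 and 349 ± 12.8 and 365 ± 12.7 per kb for Psmb8, and these neighbours lay within their spread. Tapbp had 170 ± 72.2 and 194 ± 25.7 per kb. Psmb10 (122 ± 17.5 and 100 ± 4.47 per kb) and Tap1 (102 ± 16.5 and 104 ± 22.1 per kb) changed places between the groups within their spread. Nlrc5 (29.0 ± 8.71 and 54.1 ± 5.63 per kb) and Tap2 (24.2 ± 13.2 and 29.0 ± 1.53 per kb) came last, and in CX3CR1- libraries they lay within their spread.

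Multiplying all values of a library by a common factor does not change a ratio between genes within it, whereas quantile normalization can. On the deposited scale, 7 such ratios were compared. None can pass a threshold of 0.05, since the exact permutation test of 3 libraries against 3 allows no p below 0.1. The ratio of B2m to the sum of H2-K1 and H2-D1 was 1.16, 1.02 and 0.953 in CX3CR1- and 1.48, 1.22 and 1.27 in CX3CR1+ libraries, without overlap (log2 difference -0.34, exact p = 0.1, adjusted 0.175). H2-K1 to H2-D1 was 0.960 ± 0.0691 in CX3CR1- and 1.14 ± 0.0357 in CX3CR1+ libraries (SD, n = 3 each), also without overlap (log2 difference -0.26, exact p = 0.1, adjusted 0.175). In both cases all CX3CR1- libraries had lower ratios than all CX3CR1+ libraries.

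Of the 3 exchanges of a constitutive for an immunoproteasome subunit, the ratio of Psmb8 to Psmb5 was 4.71, 3.97 and 5.85 in CX3CR1- and 6.87, 5.93 and 8.71 in CX3CR1+ libraries. These ratios did not overlap, although the highest CX3CR1- ratio was only just under the lowest CX3CR1+ ratio (log2 difference -0.56, exact p = 0.1, adjusted 0.175). Psmb5 itself had 120 ± 19.5 in CX3CR1- and 85.3 ± 18.3 in CX3CR1+ libraries (SD, n = 3 each), with a log2 fold change of 0.50 (limma adjusted p = 0.24). Of the 31-base words of Psmb5, 71.7% occurred in other annotated genes, 59.8% in Gm3375, so that its value and the ratio of Psmb8 to Psmb5 are uncertain. The ratios of Psmb9 to Psmb6 (3.61 ± 0.811 and 3.15 ± 0.737) and of Psmb10 to Psmb7 (0.653 ± 0.120 and 0.595 ± 0.0536, SD, n = 3 each) overlapped between the groups, with exact p of 0.5 and 0.6. Tap1 to Tap2 was 4.22 ± 1.68 and 3.11 ± 0.824 (SD, n = 3 each) and overlapped too (exact p = 0.4).

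**Figure D4:**
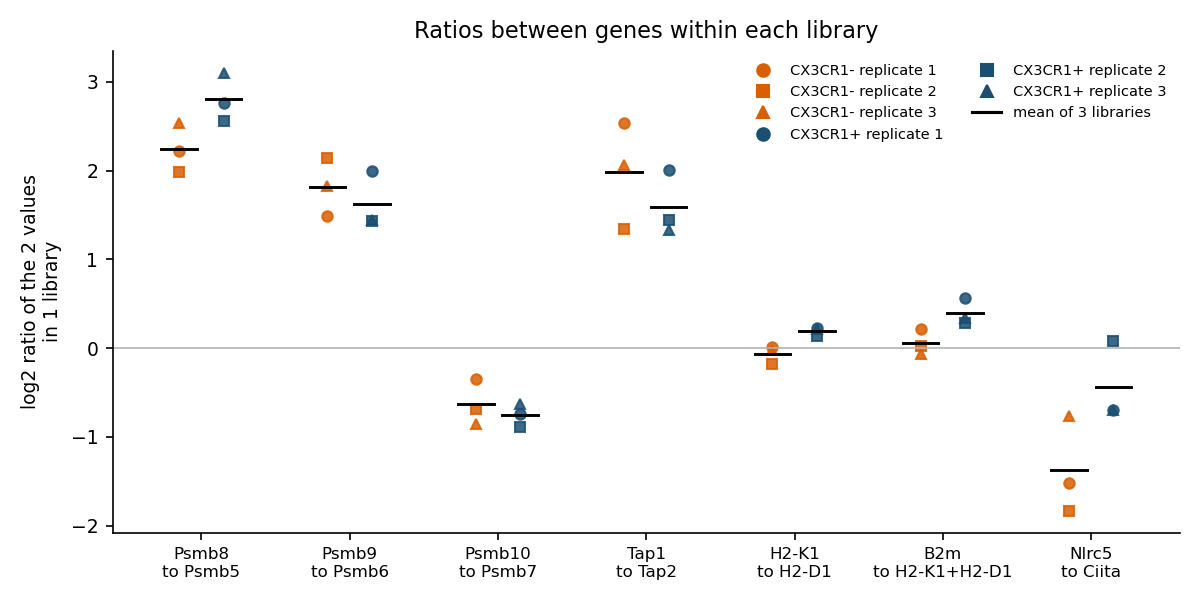
Log2 ratio of the values of 2 genes (for B2m, of B2m to the sum of both heavy chains) in each library, with CX3CR1- in orange, CX3CR1+ in blue and lines at the group means. Psmb8 to Psmb5, H2-K1 to H2-D1, B2m to the heavy chains and Nlrc5 to Ciita are lower in all CX3CR1- libraries, and the other 3 ratios overlap.

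As a description of the split between the chains and the other steps, the mean log2 value of H2-K1, H2-D1 and B2m exceeded that of Tap1, Tap2, Tapbp, Psmb8, Psmb9 and Psmb10 by 4.34 ± 0.28 in CX3CR1- and by 5.20 ± 0.11 in CX3CR1+ libraries (SD, n = 3 each). The mean of the chains was 12.48 ± 0.03 and 13.40 ± 0.11, and that of the other 6 genes was 8.14 ± 0.27 and 8.20 ± 0.12.

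Non-classical and class I-like chains are built like H2-K1, and most present special ligands to few kinds of T or NK cells. Of the 17 such genes, 5 were called lower and 3 higher, against 11.0% and 13.3% of all tested genes, with a median log2 fold change of -0.36. The lower ones were H2-M3, which presents formylated bacterial peptides (log2 fold change -1.03, limma adjusted p = 0.0068), H2-Q4 (-1.01), H2-Q6 (-0.89), H2-T23, the Qa-1 gene (-0.89), and H2-Q7, a Qa-2 gene (-0.84, limma adjusted p = 0.0032). Their sizes lay in the range of H2-K1, H2-D1 and B2m. The higher ones were H2-Q1 (log2 fold change 2.86, limma adjusted p = 0.0050), H2-Q2 and H2-T3, the thymus leukaemia antigen gene, which is known from gut epithelium. H2-Q2 had 114 ± 58.5 in CX3CR1- libraries (SD, n = 3) and was at or under the value of 3 reads in every CX3CR1+ library, so that it was at least 26.8-fold higher, and H2-T3 with 20.9 ± 5.62 (SD, n = 3) was at least 4.92-fold higher by the same floor of 3 reads per library. The epithelial markers moved in the same direction (sums of 18790 to 34467 against 27.9 to 61.9), and their part in these values was not tested. The H2-Q genes share 24.1 to 53.0% of their 31-base words with other genes, so that their single values are uncertain.

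A further list holds chaperones, peptide editors, trimming enzymes and related genes, chiefly of the ER. Of 10 such genes, 2 were called lower and 0 higher, against 11.0% and 13.3% of all tested genes, with a median log2 fold change of -0.24. At an unadjusted limma p under 0.05 the counts were 3 and 0, and no share over all genes is given here for such unadjusted counts. The 2 called genes were Canx, the calnexin gene, whose product folds new heavy chains (log2 fold change -0.93, limma adjusted p = 0.0018), and Hspa5, the general ER chaperone BiP (-0.67, limma adjusted p = 0.0058). Calr, Pdia3 and Tapbpl, which code for partners of tapasin or a tapasin-like editor, and the trimming peptidase gene Erap1 had log2 fold changes of -0.23, -0.24, -0.53 and 0.01 and did not pass the test. Of the 14 genes of the constitutive proteasome core 0 were called in either direction (median 0.17), with 2 higher and 0 lower at an unadjusted limma p under 0.05. Of the 9 tested activator and assembly genes 0 were called (median -0.20), with 1 lower at the unadjusted level. Psme1 and Psme2, the interferon-inducible activator PA28, had log2 fold changes of 0.21 and 0.28 (limma adjusted p of 0.45 and 0.50).

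Among the promoter-binding partners of NLRC5 and the interferon signalling genes, 5 of the 16 tested genes were called lower and 1 higher. The shares over all tested genes were 11.0% and 13.3%, and the median log2 fold change of the list was -0.30. The partner genes Rfx5, Rfxank and Rfxap had log2 fold changes of 0.02, -0.36 and -0.25 and did not pass the test (limma adjusted p of 0.97, 0.71 and 0.70). The interferon receptor genes Ifngr2 (log2 fold change -1.60, limma adjusted p = 0.00026), Ifnar2 (-1.32) and Ifnar1 (-1.11) were lower, as were Irf1, an activator of class I promoters (-0.64, limma adjusted p = 0.042), and the kinase gene Jak1 (-0.61, limma adjusted p = 0.014). The kinase gene Jak2 was higher, with 1138 ± 137 in CX3CR1- and 388 ± 56.3 in CX3CR1+ libraries (SD, n = 3 each, log2 fold change 1.55, limma adjusted p = 0.00022).

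Target genes of interferon were counted as neighbours of the pathway. Of 14 interferon-gamma-inducible GTPase genes, whose products attack vacuoles of pathogens, 3 were called lower (Gbp6 -1.83, Tgtp2 -1.70 and Iigp1 -1.30 in log2 fold change) and 0 higher (5 and 0 at an unadjusted limma p under 0.05), with a median of -0.35, and the other 11 did not pass the test. The shares over all tested genes were 11.0% called lower and 13.3% called higher at the adjusted level, and none is given for the unadjusted counts. Of the 31-base words of Tgtp2, 90.5% occurred in other genes, 89.2% in Tgtp1, whose log2 fold change was 0.48 (limma adjusted p = 0.47). For Gbp6 the share was 74.3%, with 67.8% in Gm43302, so that the values of Gbp6 and Tgtp2 are uncertain. Of 16 type I interferon-stimulated genes, 8 were called lower and 1 higher, against 11.0% and 13.3% of all tested genes, with a median of -1.22. The log2 fold changes of those called lower ran from -2.19 for Mx2, annotated as a polymorphic pseudogene (limma adjusted p = 0.00072), to -1.16 for Oasl2 (limma adjusted p = 0.0026). Ifit1 was higher (0.88, limma adjusted p = 0.043).

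MHC class II chain genes code for the proteins by which the cells had been gated. The list of 10 class II genes also holds genes that load or edit class II molecules and the transactivator Ciita. Of these 10 genes, 4 were called lower and 3 higher, against 11.0% and 13.3% of all tested genes. The 4 were the chain genes H2-Aa (log2 fold change -1.003, limma adjusted p = 0.00024), H2-Eb1 (-0.94) and H2-Ab1 (-0.64, limma adjusted p = 0.0036) and the invariant chain gene Cd74 (-0.85). The 3 were H2-Oa (3.27, limma adjusted p = 0.00017), H2-DMb2 (2.73) and H2-Ob (2.15, limma adjusted p = 0.00013), whose products edit class II peptides or restrain that editing, and the H2-O genes are known from B cells and dendritic cells. B and plasma cell and dendritic cell marker sums were higher in the same libraries, at 14373 to 34383 against 1675 to 2043.1 and 4044 to 4372 against 303 to 366, and their part was not tested. On the deposited scale, the classical class I chains H2-K1 and H2-D1, B2m, and the class II chains H2-Aa, H2-Ab1 and H2-Eb1 had log2 fold changes between -1.15 and -0.64.

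**Figure D5:**
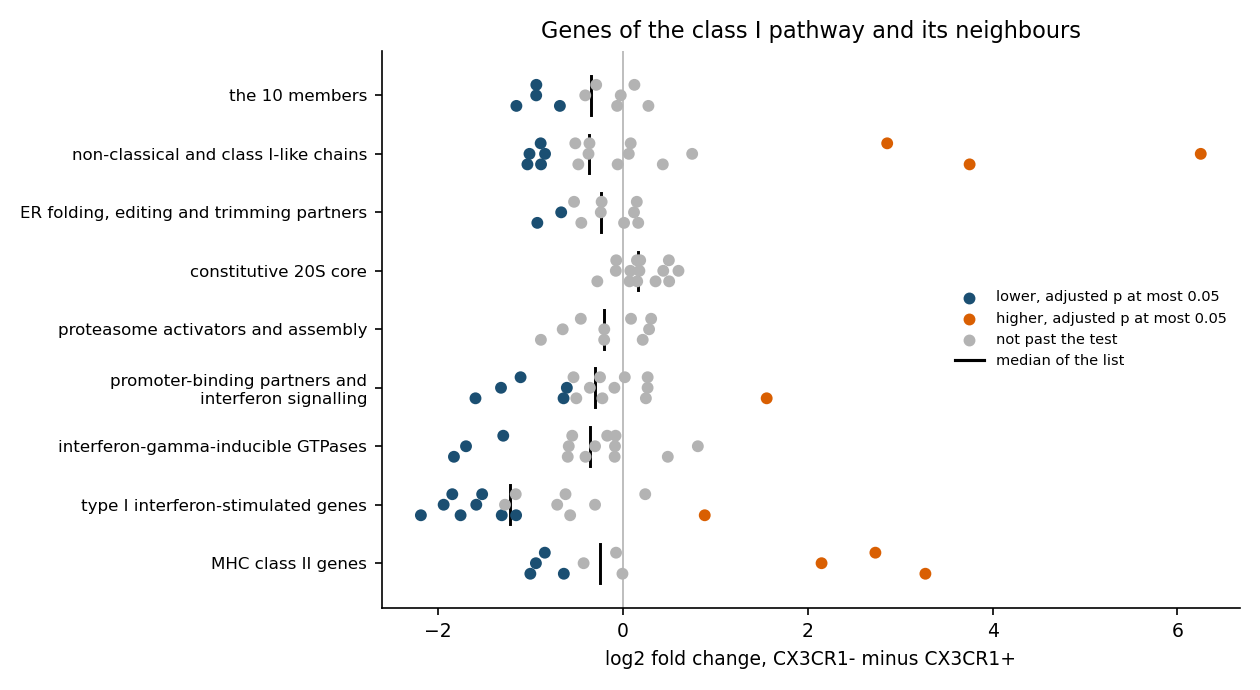
Log2 fold change, CX3CR1- minus CX3CR1+, of each tested gene (1 point per gene) of the 10 class I genes and of the pathway lists, coloured by the limma call, with a bar at the median of each list. The constitutive proteasome core holds no called gene (median 0.17), the type I interferon-stimulated genes lie furthest to the left (median -1.22), and H2-Q2, H2-T3 and H2-Q1 lie to the right of the non-classical chains.

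The spacing of TGACG and ATTGG was then read across these lists. Of 91 listed genes with a promoter window, 8 held TGACG and, after 10 to 30 bases, ATTGG, namely H2-K1, H2-D1, B2m, H2-Q7, H2-M3, H2-Aa, Jak1 and the proteasome gene Psma1, and 7 of these 8 were called lower, all but Psma1 (log2 fold change 0.18, limma adjusted p = 0.69). Among all tested genes with a window, 138 held the arrangement, of which 13.8% were called lower and 4.35% higher, with a median log2 fold change of -0.08. Of the 11244 tested genes without it, 11.2% were called lower and 14.2% higher, with a median of 0.02. The share called lower was therefore near that of the other genes. No test was made of these shares, and the 138 genes include the 3 class I chain genes.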

How the data were processed

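The data are bulk RNA-seq of 6 libraries of sorted MHCIIhi cells, 3 CX3CR1- and 3 CX3CR1+, grouped by their sample titles and numbered 1 to 3 in accession order. Per the study's methods, the authors pseudoaligned 75 bp single reads to the mm10 transcriptome (GENCODE release M16) with Kallisto, used tximport to bring the estimates to gene level, and continued with DESeq2, which the labels name too. The exact normalization step is not given in the sources used here. The values deposited by the authors are a normalized signal per gene and not counts. Whole multiples (within 0.01 reads) of the smallest step of a library made up 42.5 to 44.6% of its nonzero values. That step gave the approximate reads and the value of 3 reads. Intervals and floors cover counting error or the spread of libraries only.

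All genes with a mean of at least 10 (17812 of 26110 listed, with 23 listed symbols occurring more than once) were fitted with limma 3.58.1 in R 4.3.3 (lmFit, then eBayes with trend) after a log2(value + 1) transform. The tests were two-sided, and p-values were adjusted by Benjamini-Hochberg across every gene fitted. The log2(value + 1) scale understates changes of low genes. Calls needed an adjusted p of at most 0.05 and, in a stricter form, a 2-fold difference. Ratios were compared with exact permutation tests.

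The 10 genes and the lists were chosen with earlier results of these data known. Named were all 10 genes, the called genes with the largest and smallest change of each list, Psmb5, Psmb6, Psmb7, Psme1, Psme2, Ciita and Irf1. A further gene of this rule is not reported here. Other genes were named after their values were seen, where a count was 5 or fewer, where they share the promoter arrangement, or as partners of tapasin (Calr, Pdia3, Tapbpl and Erap1). Rfx5, Rfxank and Rfxap were likewise named as partners of NLRC5, and Tgtp1 for the words it shares with Tgtp2. Positions, principal transcript lengths and shared 31-base words came from GENCODE M21 (GRCm38), promoter windows from RefSeq. Alternatives were pseudocounts of 0.5 and 10, no filter, a mean of at least 50, 3 other scalings, no intensity trend, library quality weights and leaving out each library. A block of adjacent library numbers was added after seeing the data.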

Additional observations from a re-analysis of the deposited data

How the results depend on the processing

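B2m was called lower under all 16 alternatives. Of the 4 genes called lower, 2 were left under quantile normalization (B2m and Nlrc5) and 2 without the intensity trend (B2m and H2-K1), and 3 to 4 when a library was left out. With the 2-fold condition, the count of 1 became 0 after scaling to the total without mitochondrial genes and 1 to 2 when a library was left out (2 without CX3CR1- replicate 3). Nlrc5 lost its call after that scaling (log2 fold change -0.77, limma adjusted p = 0.070), and H2-D1 and Nlrc5 lost it without the trend (limma adjusted p of 0.077 and 0.072). The cause was not tested.

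None of the genes whose sign turned was called. Tap1 turned to 0.023 under quantile normalization, 0.15 without mitochondrial genes, 0.12 without CX3CR1- replicate 1 and 0.14 without CX3CR1+ replicate 1 (leaving out a library gave -0.15 to 0.14). Tap2 and Tapbp turned to 0.0092 and 0.11 without CX3CR1- replicate 1 (leaving out a library gave -0.81 to 0.0092 and -0.57 to 0.11), Psmb8 to 0.16 (quantile) and 0.11 (without mitochondrial genes), Psmb9 to -0.021 without CX3CR1+ replicate 3 (leaving out a library gave -0.021 to 0.32), and the ratio of Psmb10 to Psmb7 from 0.12 to -0.019 without CX3CR1- replicate 1 (leaving out a library gave -0.019 to 0.24).

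Over all genes, 1965 were called lower (1188 to 2100 when a library was left out, the lowest without CX3CR1+ replicate 2, and 1258 without CX3CR1+ replicate 3) and 2363 higher. With a mean of at least 50, 1449 were higher (1232 with 2-fold against 2177), and in the pathway lists 5 against 8 (4 against 7 with 2-fold), since fewer genes were tested. Higher calls made up 54.6% of all calls, 65.0% (2792 higher, 1504 lower) after scaling without mitochondrial genes, 49.5% (1990 and 2028) under quantile normalization and 44.8% (1449 and 1787) with a mean of at least 50. Without the trend, 1457 were called lower. The groups share no replicate numbers in the labels, which state no pairing. Library numbers form 3 adjacent pairs, and with these as a block, chosen after seeing the data, the counts were 4 and 0 for the 10 genes and 1940 lower and 2339 higher over all genes. With 3 libraries per group, the 95% confidence intervals of Tap1, Tap2, Tapbp, Psmb10 and Nlrc5 were wider than 1 on the log2 scale.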
